A study of Mus musculus with 10 samples.

Results

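Cholesterol synthesis genes were followed in the cheek skin of mice injected with matrix metalloproteinase 9 (MMP9), a secreted gelatinase. The group was set by name and holds 8 of the 18994 genes of the deposited table. It has 7 enzymes of the route, with Entrez identifiers as deposited (Hmgcs1, 208715, Idi1, 319554, Fdps, 110196, Fdft1, 14137, Sqle, 20775, Lss, 16987, and Dhcr7, 13360), and Insig1 (231070), a sensor that limits it. All 8 were found, and all 8 passed the filter on low counts. C57BL/6 mice aged 6 to 8 weeks were shaved on the cheek 3 days before a single intradermal injection of 5 µL, which held 1 µg of MMP9 in one group and only vehicle in the other. Skin was taken 4 hours after the injection from 5 mice of each group, 1 library per mouse. Both groups were thus shaved and injected, and no uninjected skin was analysed here. What the vehicle held, and whether the mice were male or female, is not stated in the labels.

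Cholesterol is built from acetyl-CoA by way of mevalonate, isoprenoid diphosphates, squalene and a series of sterols. The transcription factor SREBP-2, made from Srebf2, switches on most genes of the route when sterols in the endoplasmic reticulum fall. Insig proteins hold SREBP and its escort Scap in that membrane when sterols are plentiful, and Insig1 is itself an SREBP target, and its transcript is usually induced along with the route it restrains. In skin the route runs in keratinocytes, which need cholesterol for the lipid barrier of the cornified layer, and in sebaceous glands.

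SREBP-2 and its partners act through short motifs in promoters, and so the promoters of a few members are shown. RefSeq windows of 250 bases before a gene start (GRCm38.p6) were matched for 5 of the 8 members: Hmgcs1, Idi1, Lss, Dhcr7 and Insig1. A sterol regulatory element was searched as TCACNCCA and a CCAAT box, the site of the SREBP partner NF-Y, as CCAAT, each on both strands. The Hmgcs1 window, at chr13:119690101-119690350 on the plus strand, is printed because it was the only member window with the sterol element. The windows of Idi1 (chr13:8885356-8885605), Lss (chr10:76531355-76531604) and Insig1 (chr5:28071162-28071411), all on the plus strand, were added after the matches were seen, to show the CCAAT boxes. Capitals mark the sterol element, which is 8 letters long, and the CCAAT boxes, which read ATTGG on this strand.
Hmgcs1: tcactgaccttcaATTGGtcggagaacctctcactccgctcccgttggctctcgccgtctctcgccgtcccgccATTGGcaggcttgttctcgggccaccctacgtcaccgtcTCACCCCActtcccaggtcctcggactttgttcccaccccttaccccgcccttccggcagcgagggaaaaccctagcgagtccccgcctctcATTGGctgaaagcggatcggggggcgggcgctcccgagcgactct
Idi1: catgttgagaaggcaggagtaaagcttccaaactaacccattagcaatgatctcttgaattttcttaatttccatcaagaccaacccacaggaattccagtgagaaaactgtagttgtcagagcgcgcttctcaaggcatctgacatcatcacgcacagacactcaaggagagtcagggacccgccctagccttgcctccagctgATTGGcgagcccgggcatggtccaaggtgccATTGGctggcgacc
Lss: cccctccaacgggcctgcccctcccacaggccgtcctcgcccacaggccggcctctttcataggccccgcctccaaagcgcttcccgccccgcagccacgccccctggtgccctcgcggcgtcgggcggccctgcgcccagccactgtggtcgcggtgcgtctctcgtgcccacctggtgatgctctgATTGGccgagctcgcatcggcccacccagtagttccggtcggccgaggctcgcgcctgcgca
Insig1: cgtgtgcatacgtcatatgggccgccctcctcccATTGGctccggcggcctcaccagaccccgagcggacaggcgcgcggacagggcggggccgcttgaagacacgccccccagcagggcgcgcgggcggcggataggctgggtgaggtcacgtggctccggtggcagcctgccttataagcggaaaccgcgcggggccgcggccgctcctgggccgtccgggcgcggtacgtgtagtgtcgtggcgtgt

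In Hmgcs1 the sterol element TCACCCCA opened at base -137, counted from the start of the gene, between CCAAT boxes at -176 and -45, with a further box at -237. CCAAT boxes lay at -45 and -14 in Idi1, at -62 in Lss and at -216 in Insig1, and Dhcr7 had them at -85 and -49 in 1 of its 3 windows. All 5 members with a window thus held a CCAAT box in at least 1 window (5 of 7 windows), against 33.8% of all 32851 windows. The sterol element was in 1 of the 7 windows, against 3.67% of all windows. The GC box GGGCGG, which Sp1 binds, searched on both strands and not marked by capitals, was in 6 of the 7 windows, against 32.7% of all. Among 12 other enzymes of the route with windows, 11 held a CCAAT box and 1 the sterol element. A match is a string of letters and not a measured site, and no binding was measured here.

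No member passed the test between MMP9 and vehicle. In edgeR's quasi-likelihood test with Benjamini-Hochberg adjustment at 0.05, 0 of the 8 were called (adjusted p 0.981 to 0.998), as were 0% of the 15250 genes tested. Before adjustment, 487 genes of the whole table had p under 0.05, and 0 of the 8 members did. An unadjusted p under 0.05 with lower values in MMP9 was found for 1.12% of tested genes. DESeq2 called 1 gene of the table, the pancreatic lipase-related gene Pnliprp2 (adjusted p 0.0384), and limma-voom called 0. The mean of 7 of the 8 members was lower in MMP9, while 46.3% of all tested genes had a log2 fold change below 0. The median log2 fold change of the 8 was -0.23, against 0.01 over all tested genes. That median rested largely on 1 control animal, since it went to -0.02 when vehicle replicate 2 was left out. In no member did all MMP9 mice lie below all vehicle mice, which held for 0.138% of tested genes. Whole skin was sequenced, so fewer cells of a type and less RNA per cell cannot be told apart.

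Levels between mice are given for each gene as CPM, its share of the library's counts scaled by TMM factors. The libraries held 17121541 to 19443099 estimated counts. Hmgcs1 makes HMG-CoA, the substrate from which mevalonate is formed. It stood at 249, 573, 308, 255 and 258 CPM in vehicle replicates 1 to 5, and at 257, 262, 217, 229 and 198 CPM in MMP9 replicates 1 to 5. Vehicle replicate 2 was far above every other mouse, and the groups overlapped. Vehicle mice averaged 328 ± 139 CPM and MMP9 mice 233 ± 27.1 CPM (SD, n = 5). The log2 ratio of MMP9 to vehicle was -0.50 ± 0.23 (SE), with a 95% interval from -0.999 to 0.002, at an adjusted p of 0.981 in edgeR. Hmgcs1 had the smallest unadjusted p of the 8 members, at 0.0509 in edgeR.

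Idi1, Fdps and Fdft1 carry the isoprenoid units from isopentenyl diphosphate to squalene. Idi1, the isomerase, stood at 28.3, 45.6, 26.2, 20.0 and 18.1 CPM in vehicle replicates 1 to 5, and at 25.1, 18.3, 27.2, 25.6 and 17.7 CPM in MMP9 replicates 1 to 5. Outside vehicle replicate 2 both groups spanned nearly the same levels. Its log2 ratio of MMP9 to vehicle was -0.28 ± 0.24 (SE), with a 95% interval from -0.80 to 0.25. Fdps, farnesyl diphosphate synthase, stood at 111, 183, 137, 114 and 109 CPM in vehicle mice and at 122, 135, 143, 174 and 100.4 CPM in MMP9. It was the only member with a higher mean in MMP9, at 135 ± 27.2 against 131 ± 31.0 CPM (SD, n = 5). Its log2 ratio of MMP9 to vehicle was 0.04 ± 0.18 (SE), with a 95% interval from -0.35 to 0.44, and the sign changed with TPM in place of counts and without some mice.

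Fdft1, squalene synthase, commits farnesyl diphosphate to sterols. It stood at 99.2, 182, 133, 109 and 93.9 CPM in vehicle mice and at 105, 109, 110.4, 124 and 90.2 CPM in MMP9. The MMP9 mice lay within the span of the vehicle mice except replicate 5, which was the lowest of all. The log2 ratio of MMP9 to vehicle was -0.20 ± 0.18 (SE), with a 95% interval from -0.59 to 0.19.

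Sqle, Lss and Dhcr7 act after squalene. Sqle, the oxygenase that makes the epoxide of squalene and a control point of the route, stood at 68.0, 153, 97.9, 76.6 and 76.5 CPM in vehicle mice and at 89.5, 83.7, 87.1, 75.2 and 57.2 CPM in MMP9. Without vehicle replicate 2 the groups lay on each other, apart from a low value in MMP9 replicate 5. Its log2 ratio of MMP9 to vehicle was -0.27 ± 0.22 (SE), with a 95% interval from -0.75 to 0.21. Lss, which closes the epoxide into lanosterol, stood at 43.0, 119.8, 55.3, 51.1 and 43.4 CPM in vehicle mice and at 47.3, 48.5, 53.9, 37.6 and 34.5 CPM in MMP9. It had the widest span of the 8, with 3.47 times as much in vehicle replicate 2 as in MMP9 replicate 5. Its log2 ratio of MMP9 to vehicle was -0.49 ± 0.28 (SE), with a 95% interval from -1.10 to 0.11.

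Dhcr7 reduces 7-dehydrocholesterol, which is also the precursor of vitamin D in skin, to cholesterol. It stood at 135, 255, 176, 171 and 208 CPM in vehicle mice and at 174, 214, 224, 168 and 158 CPM in MMP9. The groups overlapped throughout, with means of 189 ± 45.2 and 188 ± 29.5 CPM (SD, n = 5). The log2 ratio of MMP9 to vehicle was -0.01 ± 0.17 (SE), with a 95% interval from -0.38 to 0.36 (adjusted p 0.998 in edgeR), and the sign was not stable. Insig1, the membrane sensor, stood at 51.2, 80.8, 67.4, 66.5 and 60.02 CPM in vehicle mice and at 52.4, 55.9, 69.7, 61.7 and 53.3 CPM in MMP9. It had the narrowest span, with 1.58 times as much in the highest mouse as in the lowest. Its log2 ratio of MMP9 to vehicle was -0.15 ± 0.13 (SE), with a 95% interval from -0.43 to 0.12.

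**Figure D1:**
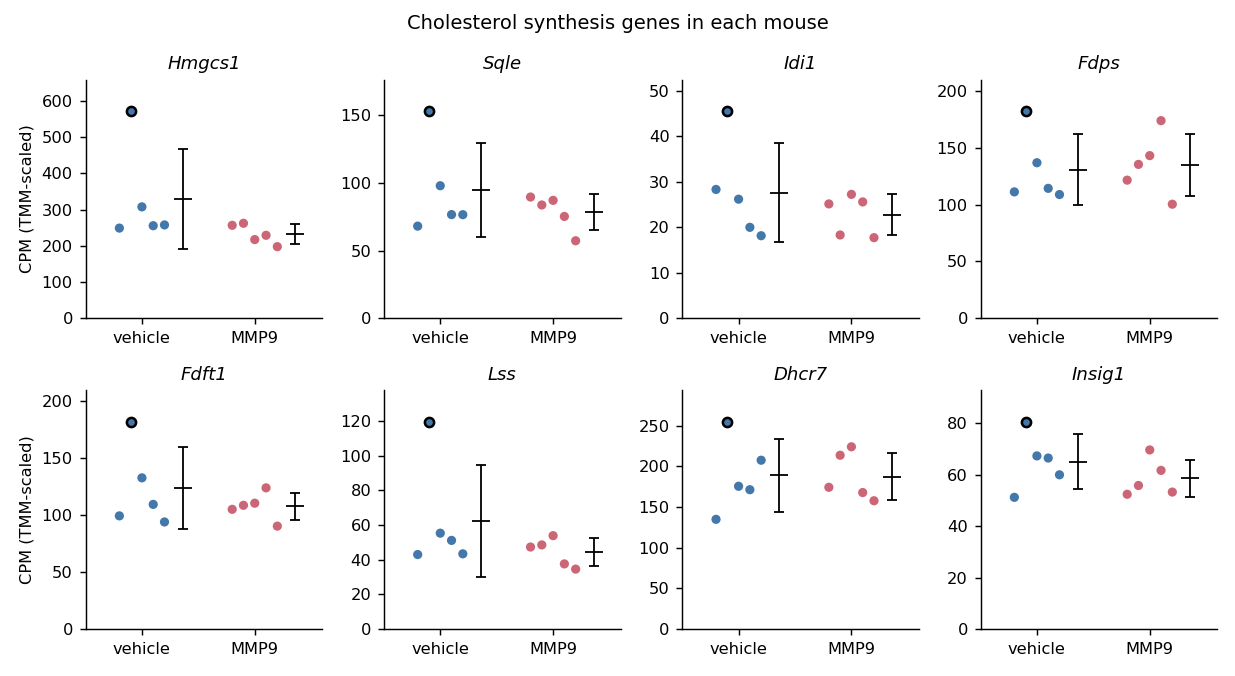
Each panel plots TMM-scaled CPM of 1 gene on an axis that starts at 0, with 1 point per mouse (5 vehicle, 5 MMP9) in order of replicate number; bars give the mean and SD, and the outlined point is vehicle replicate 2. That mouse is the highest of the 10 in all 8 panels, and the other mice of both groups overlap.

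All 8 members were highest in vehicle replicate 2, while this mouse was highest for 14.2% of the tested genes. Its level was 1.32 (Insig1) to 2.49 (Lss) times the mean of the other 4 vehicle mice. It was at least 1.5 times that mean for 6 of the 8 members and for 4.52% of tested genes. These counts describe 1 animal that was singled out after its values were seen. The other vehicle mice averaged 267 ± 27.0 CPM for Hmgcs1 and 48.2 ± 6.05 CPM for Lss (SD, n = 4), and they were more spread for Idi1, at 23.1 ± 4.86 CPM, and Dhcr7, at 172 ± 29.8 CPM. Without vehicle replicate 2 the log2 fold changes were -0.20 for Hmgcs1, -0.02 for Idi1, 0.19 for Fdps, -0.02 for Fdft1, -0.02 for Sqle, -0.12 for Lss, 0.12 for Dhcr7 and -0.06 for Insig1. In that fit the 95% intervals of all 8 lay between -0.46 and 0.54, with adjusted p of 0.999 throughout (edgeR).

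**Figure D2:**
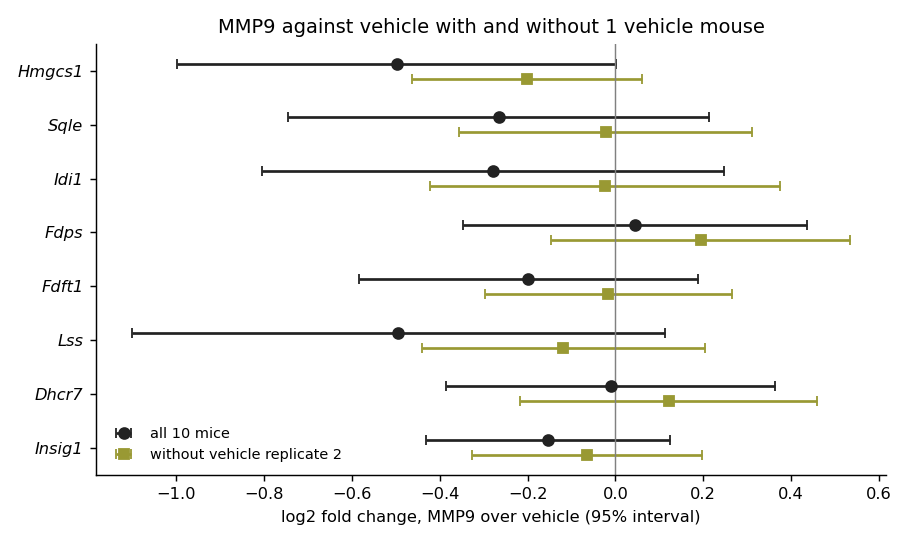
Points give the log2 fold change of MMP9 over vehicle for each member from edgeR, with 95% intervals, over all 10 mice (circles) and without vehicle replicate 2 (squares). Every interval holds 0 in both fits, and the estimates of Hmgcs1 and Lss move from -0.50 and -0.49 to -0.20 and -0.12.

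Most other enzymes of the route were also highest in vehicle replicate 2. Counting the 7 member enzymes and 14 further ones, 19 of 21 were highest in vehicle replicate 2, and 18 of 21 were there at least 1.5 times the mean of the other vehicle mice. The exceptions to the first count were Lbr, a sterol reductase of the nuclear envelope, at 1.08 times, and Sc5d, the lathosterol desaturase, at 1.09 times. Beyond the members the ratio was 2.47 times for Mvd, the mevalonate diphosphate decarboxylase, 2.33 times for Acat2, which joins acetyl-CoA units, and 1.57 times for Mvk, the mevalonate kinase. Against vehicle, 19 of 21 enzymes had a negative log2 fold change with all mice, and 11 of 21 without vehicle replicate 2. The median of the 21 went from -0.23 to -0.02, and none passed in edgeR in either fit.

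Sc5d had an unadjusted p of 0.0133 in edgeR, with higher values in MMP9. It stood at 32.9, 38.8, 35.9, 35.3 and 38.2 CPM in vehicle mice and at 48.4, 43.7, 85.0, 42.1 and 44.2 CPM in MMP9. By CPM all MMP9 mice lay above all vehicle mice, as for 0.426% of tested genes, and replicate 3 was far above the rest. By TPM this did not hold. MMP9 replicate 4 stood at 17.51 TPM, below all vehicle mice, at 18.1 to 24.55 TPM. The log2 ratio was 0.54 ± 0.18 (SE; adjusted p 0.981 in edgeR).

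Before squalene, 5 of 5 further enzymes had negative values, with a median log2 ratio of -0.42. Mvd had -0.46 and Acat2 -0.42. Without vehicle replicate 2 each had -0.08, 3 of the 5 were negative, and the median was -0.08. After squalene, 8 of 9 were negative, with a median of -0.17. Cyp51 and Hsd17b7, which take part in the steps that remove methyl groups from lanosterol, each had -0.49. Without vehicle replicate 2 they had -0.16 and -0.15, only 3 of the 9 were negative, and the median was 0.001. None of these genes passed in edgeR.

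**Figure D3:**
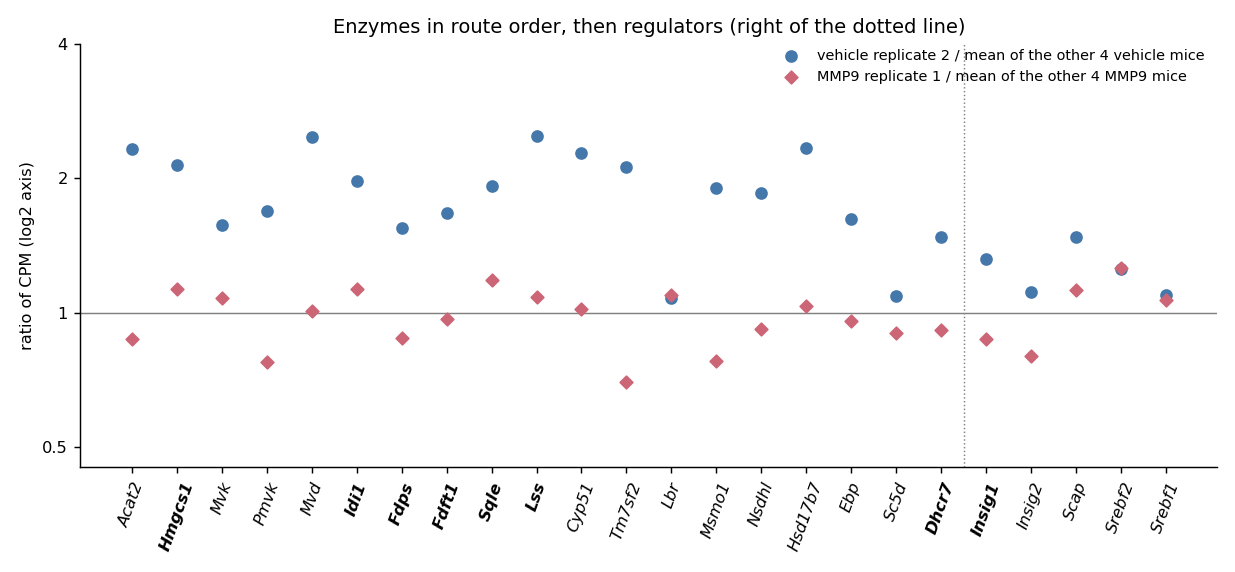
For each gene, circles give the CPM of vehicle replicate 2 over the mean of the other 4 vehicle mice and diamonds the CPM of MMP9 replicate 1 over the mean of the other 4 MMP9 mice, on a log2 axis; enzymes stand in route order, regulators right of the dotted line, members in bold. Among the enzymes plotted, circles reach 2.49 at Lss and stay near 1 at Lbr and Sc5d, while the diamonds lie between 0.700 (Tm7sf2) and 1.18 (Sqle).

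The genes of the SREBP machinery had log2 ratios near 0. Of 9 such genes, 0 passed in edgeR, 3 had positive and 6 negative values, with a median of -0.03, and 2 were highest in vehicle replicate 2. Without that mouse 5 were positive and 4 negative, with a median of 0.03. Srebf2 averaged 115 ± 13.04 CPM in vehicle mice against 112 ± 21.9 CPM with MMP9, and Srebf1, the factor tied more to fatty acids, 138 ± 23.1 CPM in both groups (SD, n = 5). Vehicle replicate 2 stood at 1.25 times the other vehicle mice for Srebf2, 1.10 times for Srebf1, 1.48 times for Scap and 1.11 times for Insig2, the second Insig protein. The log2 ratio of Insig2 was 0.15 ± 0.13 (SE).

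Of 7 cholesterol uptake and transport genes tested, none passed in edgeR, 2 were positive and 5 negative, and the median was -0.11. The log2 ratio of Tmem97, the sigma-2 receptor gene, was -0.59 ± 0.27 (SE), with vehicle replicate 2 at 2.40 times the other vehicle mice. Without that mouse it was -0.24 ± 0.16 (SE), and the median of the 7 was -0.03. The positive genes of this list, Npc2 and Lipa, had 0.20 and 0.30 over all mice. Genes of the liver X receptor and of cholesterol efflux, which answer to sterol excess, were 2 positive and 8 negative, with a median of -0.01. The transporter gene Abca1 had -0.26, and Soat1, which esterifies cholesterol, -0.38. Vehicle replicate 2 stood at 1.07 times the other vehicle mice for Abca1 and 2.15 times for Soat1, and without it they had -0.24 and -0.08. On the positive side, Ch25h had 0.61 ± 0.44 (SE), and 0.50 without that mouse.

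Fatty acid synthesis genes were 4 positive and 7 negative, with a median of -0.04, and 8 positive and 3 negative without vehicle replicate 2, with a median of 0.08. Scd1, the stearoyl-CoA desaturase, had 4967 ± 1872 and 4378 ± 1346 CPM, and the desaturase gene Fads1 had 35.3 ± 3.79 and 39.8 ± 2.58 CPM (SD, n = 5). The log2 ratio of Scd1 went from -0.18 to 0.08 without that mouse. Other branches that draw on isoprenoids were 4 positive and 5 negative, with a median of -0.02, and 5 positive and 4 negative without it, with a median of 0.002. Pdss2, needed for the tail of coenzyme Q, had the smallest unadjusted p of that list, 0.0263 in edgeR, at 10.6 ± 0.502 and 8.95 ± 0.694 CPM (SD, n = 5). No gene of either list passed in edgeR.

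The tissue carried the markers of skin, with the basal keratinocyte gene Krt14 at 2705 ± 1130 TPM in vehicle mice and 2382 ± 504 TPM with MMP9 (SD, n = 5), but vehicle replicate 2 differed in several marker lists. Hair shaft and inner root sheath genes summed to 20.4 TPM, the length-corrected unit, in this mouse and 27.3 TPM in MMP9 replicate 1, against 509 to 6796 TPM in the other 8 mice, and of the 17 genes Krt72, Krt34 and Krt35 were listed at 0 in 1 or 2 libraries each. Sebaceous gland genes summed to 3800.4 TPM in vehicle replicate 2, against 2041 to 2749 TPM in the other vehicle mice and 2173 to 3073 TPM in MMP9, and 6 of 9 were highest there. The rest of that list, Scd3, Awat2 and Cidea, stood in this mouse at 0.170, 0.934 and 1.48 times the other vehicle mice by CPM. Basal keratinocyte genes summed to 9936 TPM, against 5767 to 7458 TPM in the other vehicle mice and 5450.3 to 8536 TPM in MMP9, with 4 of 7 highest there. Suprabasal genes summed to 18611 TPM, against 12877 to 16249 TPM and 14346 to 20349 TPM, with 3 of 8 highest there. Fibroblast genes summed to 3193 TPM, against 2663 to 5240.1 TPM and 4001 to 6410 TPM, and adipocyte genes to 1777 TPM, against 1112 to 4120.1 TPM and 1686 to 3679 TPM. Skeletal muscle genes summed to 15380.3 TPM, the least of the 10 mice, though vehicle replicate 5 and MMP9 replicate 1 were close to it, at 15396 and 15454 TPM. No sebaceous, keratinocyte, fibroblast or adipocyte marker was at 0 in any library. MMP9 replicate 1 had hair genes about as low as vehicle replicate 2, and the highest basal and suprabasal sums of the MMP9 mice. Its sebaceous genes summed to 2503 TPM, below vehicle replicate 2. It had the 8 members at 0.855 to 1.12 times the mean of the 4 vehicle mice other than replicate 2. The part of these markers in the levels of the members was not tested.

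**Figure D4:**
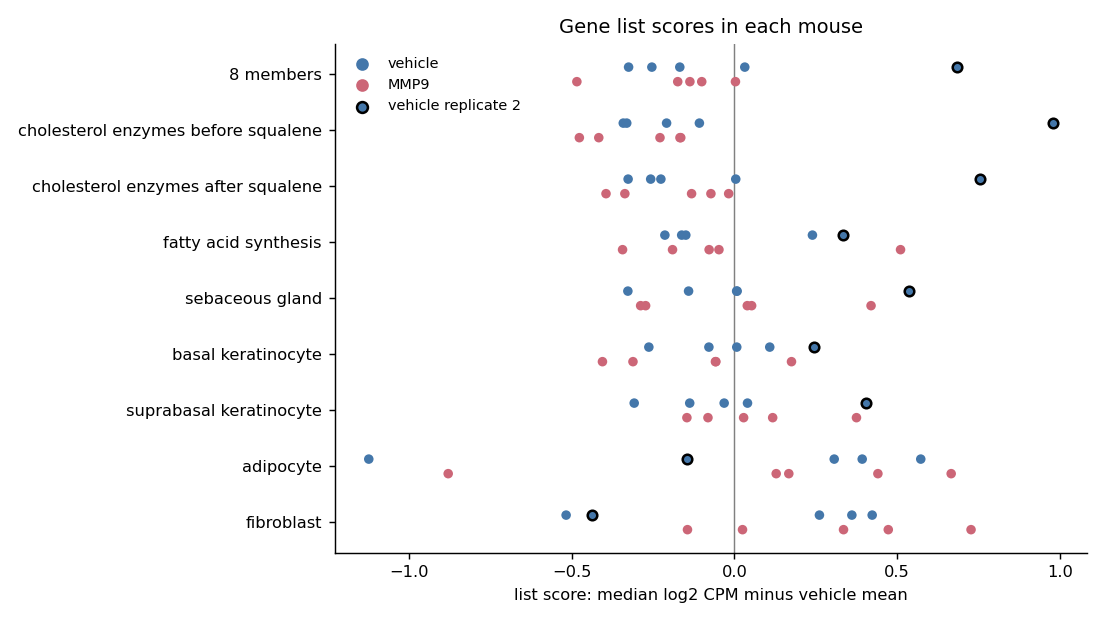
Each point is 1 mouse, placed by the list score on the x axis, the median over its tested genes of log2 CPM after subtraction of each gene's mean in vehicle mice; the outlined point is vehicle replicate 2. It stands apart at 0.68 for the 8 members, and at 0.98 and 0.75 for the other enzymes before and after squalene. It is highest at 0.54 for sebaceous gland genes, ahead of MMP9 replicate 4 at 0.42. For basal and suprabasal keratinocyte genes it is also highest, at 0.25 and 0.41, narrowly ahead of MMP9 replicate 1 at 0.18 and 0.38. Vehicle replicate 2 lies among the other mice for adipocyte and fibroblast genes.

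The members' levels relative to each other were compared in TPM, which accounts for transcript length. Fdps was the most abundant, at 177 ± 35.0 TPM over the 10 mice (SD), followed by Hmgcs1 at 134 ± 55.1 and Dhcr7 at 133 ± 33.4 TPM. Fdps exceeded Hmgcs1 in 9 of 10 mice, whereas Hmgcs1 exceeded Dhcr7 in 4 of 10, at 4 of 5 vehicle mice and 0 of 5 MMP9 mice. That tally was not tested between groups and holds near ties. Hmgcs1 and Dhcr7 stood at 121.18 and 120.1 TPM in vehicle replicate 4, and at 134.22 and 134.72 TPM in MMP9 replicate 1. Hmgcs1 averaged 159 TPM in vehicle and 109 TPM in MMP9, and Dhcr7 135 and 131 TPM. Fdft1 at 63.6 ± 16.1, Sqle at 52.4 ± 17.8 and Insig1 at 38.7 ± 7.44 TPM followed, each above the next in 10 of 10 mice. Idi1 at 14.5 ± 5.12 and Lss at 14.3 ± 6.85 TPM were lowest, and Idi1 was the higher in 6 of 10 mice, 2 of 5 vehicle and 4 of 5 MMP9. MMP9 replicate 4 had the lowest sum of the 8 members by TPM, at 431 TPM against 481 to 1023 TPM elsewhere, but not by TMM-scaled CPM. Its TMM factor was 0.843, against 0.993 to 1.05 in the other libraries.

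The members varied together across mice, and 1 mouse raised the correlations. Over the 28 pairs, Pearson's r of log2 CPM across the 10 mice ran from 0.32 to 0.95 with a median of 0.74, and Spearman's rho had a median of 0.66. By a permutation test with Benjamini-Hochberg adjustment over the 28 pairs, 21 pairs passed at 0.05 by r and 2 by rho. Pairs of other genes were not counted, so whether these counts are particular to the members was not tested. The closest pair was Sqle and Lss, with r of 0.95 (permutation p 0.00031, adjusted 0.00868) and rho of 0.90 (permutation p 0.00076, adjusted 0.0106). Fdps and Fdft1, neighbours in the route, had r of 0.86 (permutation p 0.00067, adjusted 0.00938) and the highest rho, 0.93 (permutation p 0.00036, adjusted 0.0101). The loosest pair was Idi1 and Dhcr7, with r of 0.32 (permutation p 0.370, adjusted 0.370) and rho of 0.24 (permutation p 0.514, adjusted 0.514).

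With the pair of mice farthest from the median of the first gene left out, r ran from -0.49 to 0.85 with a median of 0.35, and 6 pairs were negative. Vehicle replicate 2 was among those left out in all 28 pairs. With only vehicle replicate 2 left out, an alternative chosen after seeing the data, 27 of 28 pairs stayed positive with a median r of 0.49. None then passed, the lowest adjusted p being 0.110 in an exact permutation test. Sqle with Lss kept r of 0.84 and Fdps with Fdft1 0.81, while Hmgcs1 with Fdps fell from 0.58 to 0.12. In log2 CPM no pair thus passed without that mouse, while leaving it out alone kept the sign of 27 pairs. The test then had fewer mice, and no other mouse was left out alone. Whether the loss of passing pairs is particular to that mouse was not tested. With log2(TPM + 1) over all 10 mice, vehicle replicate 2 included, 27 pairs passed by r and 20 by rho. TPM carry no TMM scaling, and MMP9 replicate 4, with a TMM factor of 0.843, had the lowest sum of the members by TPM. The part of that library in the TPM counts was not tested.

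**Figure D5:**
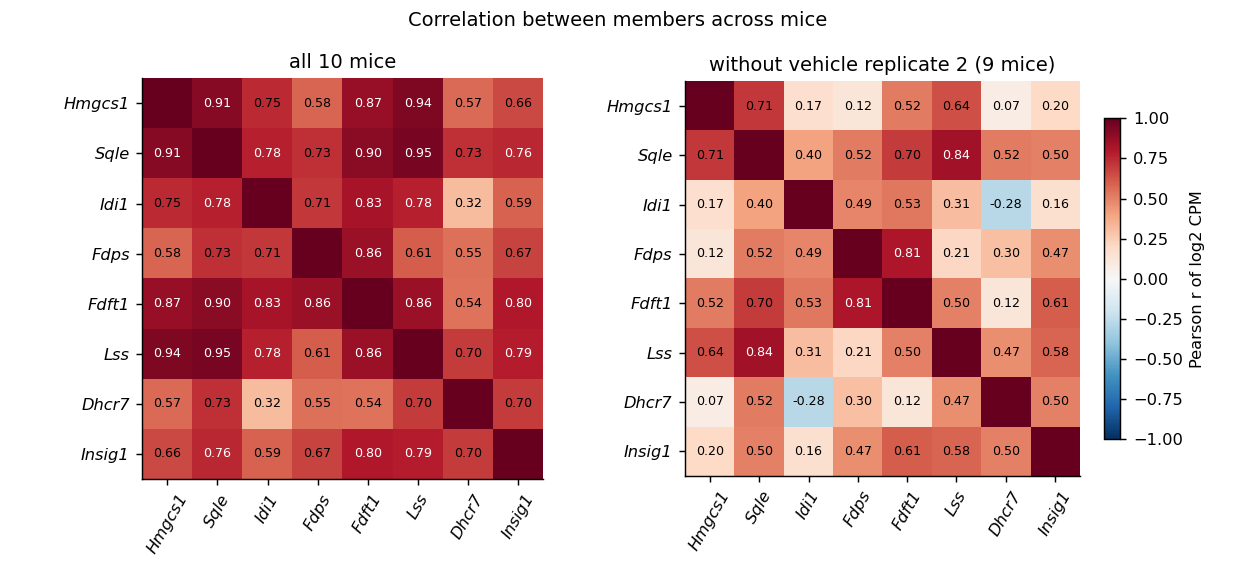
Each cell gives Pearson's r of log2 CPM between a pair of members, over all 10 mice (left) and over 9 mice without vehicle replicate 2 (right), with colour from -1 (blue) to 1 (red). The median over pairs goes from 0.74 to 0.49, while Sqle with Lss goes from 0.95 to 0.84 and Fdps with Fdft1 from 0.86 to 0.81.

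The genes most like the members were sought among 12518 genes of at least 5 CPM, by the median over the 8 members of Pearson's r, with values centred within each group, over 10 mice. The 10 non-members with the highest likeness had medians of 0.87 to 0.90, against 0.01 for the median gene. They were Rtn3, Rdh1, Entpd5, Sdr42e1, Psapl1, Pank1, Mgll, Rmdn3, Elovl4 and Atp6v0a4. Rtn3 encodes a reticulon of the endoplasmic reticulum, Rdh1 a retinol dehydrogenase, Pank1 a kinase of coenzyme A synthesis and Atp6v0a4 a subunit of the proton pump of acidic compartments. Elovl4, the elongase of very long acyl chains in barrier ceramides, stood at 3603 CPM in vehicle replicate 2 and at most at 2257 CPM elsewhere. Mgll, the monoacylglycerol lipase, stood at 2700.2 CPM there and at most at 1466 CPM elsewhere.

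All 10 of these genes were highest in vehicle replicate 2. Of the 14 other enzymes of the route, 7 were among the first 100 non-members, led by Cyp51 and Mvk, each with a median r of 0.87. Lbr and Sc5d had 0.30 and 0.32. Srebf2 had 0.44 and Srebf1 0.14. Without vehicle replicate 2 and MMP9 replicate 1 the medians of the 10 genes were 0.61 to 0.79, and Mgll was then the highest of them. By the same measure over all 10 mice, the members ran from 0.72 (Dhcr7, rank 407) to 0.87 (Fdft1, rank 16). Each member's r with itself was counted there, and the 10 genes still ranked above every member. Without those libraries the members ran from 0.32 (Idi1, rank 2574) to 0.75 (Sqle, rank 17). These values are descriptions across mice that share 1 extreme animal.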

How the data were processed

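Polyadenylated RNA of the injected cheek was sequenced from 5 mice of each group as single-end reads of 50 bases on a DNBSeq instrument, per the labels' protocols. The authors deposited estimated counts and TPM for 18994 genes, per the file headers. The deposited TPM are scaled by transcript length and to a common sum. The submitters' processing notes name HISAT and GRCm39. No source used here names the quantifier, the annotation, tool versions or strand handling. Another 16 columns (FPKM and group means) were not used here. Total estimated counts were 17121541 to 19443099 per library.

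The estimated counts were rounded, filtered with filterByExpr, scaled by TMM and compared by the quasi-likelihood F test of edgeR 4.0.16 under R 4.3.3, with treatment as the only term and Benjamini-Hochberg adjustment over the 15250 genes kept, which held 99.9% of the counts. The standard error is derived from the F statistic. Log2 CPM used a prior count of 2. Correlations used 100000 permutations, or all arrangements with under 10 mice, and values centred within each group were permuted within each group. The test and the likeness ranking were checked on simulated data.

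The members and lists were chosen with earlier results of these data known. Of 141 list entries, 139 matched. Of each pathway list the up to 4 genes with the smallest p may be named, with Srebf1, Srebf2, Insig2 and others that are not reported here. The choice among them was made with the values in view. Other settings tried were 2 scalings (RLE, upper quartile), dropping the filter or asking for 1 CPM on average, limma-voom, DESeq2 1.42.0, limma on log2(TPM + 1) and log2(TPM + 0.1) (limma 3.58.1), the mouse number as a block, leaving out each mouse, and leaving out both libraries with nearly no hair transcripts. Promoter windows are from RefSeq (GRCm38.p6), an earlier build than the files use. No window was matched for Sqle, Fdps and Fdft1.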

Additional observations from a re-analysis of the deposited data

Results flagged for a closer look

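Among 16 sets of 5 mice (8 members in each group), 2 held a mouse far from its group by a gap test at the 95% level, which chance gives in about 1 of 20 sets. The sets share the same mice and hold genes that varied together, so they are not independent and the count cannot be weighed against that share. Both were vehicle replicate 2, with Hmgcs1 at 573 CPM (gap to the next mouse 0.819 of the range) and Lss at 119.8 CPM (0.839 of the range). The part of the animal, the piece of skin or the library in these values was not tested.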

How the results depend on the processing

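Over 20 alternatives, 145 of 160 member estimates kept their sign and their side of the threshold, and 15 turned sign, all in Dhcr7 or Fdps. Member adjusted p ran from 0.887 to 1. Dhcr7 went to 0.0131 with upper-quartile factors, 0.00572 with limma-voom, 0.00792 with the replicate block and 0.15 without both libraries with nearly no hair transcripts, and from -0.11 to 0.12 leaving out each mouse. Fdps went to -0.0143 with either TPM setting, and from -0.0654 to 0.19 leaving out each mouse. The cause of these turns was not tested. The median of the 8 ran from -0.31 to -0.02 leaving out each mouse. DESeq2 called 1 gene and every other alternative 0. Of the 28 pairs of members, 21 passed by r in log2 CPM, 27 in log2(TPM + 1), 13 with values centred within each group, 0 without both libraries with nearly no hair transcripts and 0 without vehicle replicate 2 alone. The centred values were permuted only within each group, so that count comes from a different permutation scheme. Their median r was 0.76, against 0.74 in the main setting, and 9 pairs passed by rho, against 2.

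Mice with the same number share only a number: their deviations correlated at -0.24, -0.05, 0.46, 0.14 and 0.20, and 2 of 5 vehicle mice correlated best with their own number. With the replicate block, edgeR called 0 genes, with 554 at an unadjusted p under 0.05.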
